A study of Mus musculus with 12 samples.

Results

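The genes described here are the mouse long noncoding RNAs whose symbol is Platr or Snhg followed by a number, together with Lncenc1. Taken by symbol, 45 of the 55416 genes counted in each library met that rule: 29 Platr genes, 15 Snhg genes and Lncenc1. Snhg16 was reached through its RefSeq synonym, and Platr2, Snhg4 and Snhg7 were not analysed here. RefSeq now lists Platr17 as the protein-coding gene Smim40, and the annotation used for names also gives Platr25 and Snhg11 a protein-coding biotype, so the names do not mean that every member is noncoding.

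Total RNA of mouse embryonic stem cells of the line Bl/6J was depleted of ribosomal RNA and sequenced in 12 libraries, 3 in each of 4 groups. The C48S RA group was a derived line carrying the Oct4 C48S mutation, grown without the cytokine LIF and with 1.5 mg/L retinoic acid (RA) for 2 days, and the WT RA group was the parental line under the same conditions. The C48S undifferentiated and WT undifferentiated groups were the same lines kept with a MEK inhibitor (PD03259010, 1 µM), a GSK3 inhibitor (CHIR99021, 3 µM) and ascorbic acid. The mutant libraries all carry the line label #46, so effects of the mutation and of anything else particular to that line cannot be told apart. The treatment field of the RA libraries names days between 2 and 7, a different day for each library, whereas titles and protocol place all of them at day 2, which was used. The RA groups thus differ from the undifferentiated ones in medium as well as in RA, and whether the inhibitors were kept during differentiation is not stated. The parts of RA, of LIF and of the inhibitors cannot be told apart, and a change with RA means the whole switch of conditions. Whether libraries of 1 group stem from separate cultures is not stated, and each p-value therefore reflects the spread among libraries, which may be technical.

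Small nucleolar RNAs (snoRNAs) guide chemical modification of ribosomal and spliceosomal RNA, and most mammalian ones are released from introns of longer host transcripts. Snhg stands for small nucleolar RNA host gene, and the spliced host RNAs are often short-lived, several of them through nonsense-mediated decay. Platr stands for pluripotency-associated transcript, a name given in mouse embryonic stem cells to noncoding RNAs whose expression goes with the pluripotent state. Lncenc1 is a nuclear long noncoding RNA of naive mouse embryonic stem cells that has been tied to glycolytic gene expression through the RNA-binding proteins Ptbp1 and Hnrnpk. Oct4, the product of Pou5f1, is a transcription factor at the centre of the pluripotency network.

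The families differed in the sequence at their annotated starts. RefSeq promoter windows of 300 bases on GRCm38.p6, 250 before and 50 after a start, were matched by symbol for 14 Snhg genes (15 windows), 13 Platr genes (15 windows) and Lncenc1. The Snhg windows held a median of 25 CG dinucleotides (2 to 36), the Platr windows 4 (0 to 9) and the Lncenc1 window 4, against a median of 7 over all 32851 windows (interquartile range 3 to 20). At least 10 CG dinucleotides were found in 14 of the 15 Snhg windows, in 0 of the 15 Platr windows and in 43.5% of all windows. The Snhg window under that number, with 2, was that of Snhg14. The stretches from 100 bases before to 50 bases after the start are shown for 2 Snhg hosts, Lncenc1 and 3 Platr genes that recur in the results, so that the difference can be read directly, 5′ to 3′ on the strand of the gene with CG in capitals. This stretch held 12 CG for Snhg5, 9 for Snhg1, 2 for Lncenc1, and 1 each for Platr10 and Platr14, with 0 for Platr7.
Snhg5 (chr9:88522848-88522997, minus strand): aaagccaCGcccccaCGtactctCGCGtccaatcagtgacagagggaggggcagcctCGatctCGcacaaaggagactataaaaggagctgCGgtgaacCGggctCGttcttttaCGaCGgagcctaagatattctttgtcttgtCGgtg
Snhg1 (chr19:8723387-8723536, plus strand): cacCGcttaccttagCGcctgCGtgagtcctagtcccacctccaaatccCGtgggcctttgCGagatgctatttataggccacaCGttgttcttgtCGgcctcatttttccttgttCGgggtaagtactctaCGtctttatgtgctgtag
Lncenc1 (chr13:97434870-97435019, plus strand): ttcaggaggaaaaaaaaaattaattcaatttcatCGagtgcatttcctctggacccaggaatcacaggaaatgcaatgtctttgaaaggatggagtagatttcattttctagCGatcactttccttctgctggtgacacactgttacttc
Platr10 (chr3:75655682-75655831, minus strand): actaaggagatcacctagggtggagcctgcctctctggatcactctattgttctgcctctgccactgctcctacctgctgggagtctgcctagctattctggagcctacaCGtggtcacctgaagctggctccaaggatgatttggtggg
Platr14 (chr2:104559359-104559508, plus strand): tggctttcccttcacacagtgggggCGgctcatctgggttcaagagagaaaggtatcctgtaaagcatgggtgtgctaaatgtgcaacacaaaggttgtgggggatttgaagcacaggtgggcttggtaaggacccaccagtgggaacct
Platr7 (chr10:84553289-84553438, minus strand): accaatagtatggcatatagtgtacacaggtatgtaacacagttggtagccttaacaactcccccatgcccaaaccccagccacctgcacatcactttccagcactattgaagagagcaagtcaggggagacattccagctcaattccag

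**Figure D1:**
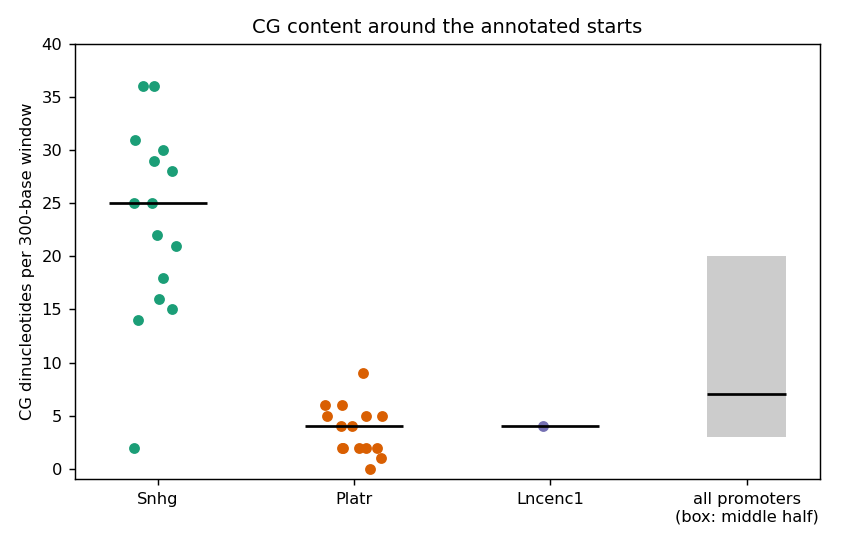
CG dinucleotides per 300-base RefSeq promoter window, 1 point per window, with a black line at each median and, for all promoters, a grey box over the interquartile range. Of the Snhg points 14 of 15 lie at 10 or more and the Platr points lie at 9 or fewer.

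In the gene models of the deposited files (GRCm39), the Platr genes lay on 13 chromosomes and the Snhg genes on 11. Their exon models had median lengths of 1334 bases for Platr (375 to 6180) and 2652 bases for Snhg (183 to 26093). Among genes that GENCODE M21 types as snoRNA, 36 lay on the same strand inside 12 of the 15 Snhg genes and 0 inside the 29 Platr genes. A further 204 same-strand genes that overlap 5 Snhg genes have no type there, 199 of them at Snhg14, so these are not full counts of the deposited models. Several members overlap other genes. Snhg3 (chr4:132075325-132080997, minus strand) overlaps Rcc1 on its own strand, Platr16 overlaps a pseudogene on its own strand, and Snhg14 (chr7:58957672-59625507, minus strand) runs antisense through Ube3a, and it also overlaps a protein-coding gene model on its own strand (5676 counts in all libraries, against 3169 for Snhg14). Snhg10 (165 counts) overlaps an untyped gene on its own strand that has 3271 counts. The division of reads at Snhg3, Snhg10, Snhg14 and Platr16 is therefore uncertain. Platr25, with 15 exon blocks on chromosome 13, is uncertain likewise because its model overlaps 2 other gene models on the same strand.

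Libraries held 8678088 to 13597098 counts, and 39 members passed the low-count filter with 17940 genes in all: 23 Platr, 15 Snhg and Lncenc1. The 6 below it were Platr15 (22 counts over all libraries), Platr19 (8), Platr23 (22), Platr29 (44), Platr30 (18) and Platr32 (39). C48S undifferentiated replicate 3 stood apart. In a chi-square test of counts over genes, the statistic divided by its degrees of freedom was 9.66 and 9.88 between it and the other libraries of its group, against 1.6 to 2.3 for the other pairs within groups, and results that change without it are named below. The mutation changes a base that gene counts do not show, so the counts do not check the genotype, and Pou5f1 stood at 557 CPM in C48S undifferentiated cells and 585 CPM in WT undifferentiated cells. The defining stem cell markers (7 of 7 with counts in each group) summed to 615 to 640 CPM in C48S RA, 331 to 347 CPM in WT RA, 3380 to 3741 CPM in C48S undifferentiated and 3627 to 3762 CPM in WT undifferentiated libraries.

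Levels are given as CPM, counts relative to a library total scaled by TMM, and, between genes, as RPKM, the CPM per kilobase of exon model. In WT undifferentiated cells the highest member was Lncenc1 at 130 ± 1.5 RPKM (SD, n = 3 here and below), followed by Platr14 (67.7 ± 3.3 RPKM), Snhg3 (61.4 ± 1.1 RPKM) and Platr3 (58.0 ± 4.9 RPKM). Snhg3 and Platr3 did not differ beyond their SD. In C48S undifferentiated cells Lncenc1 (91.0 ± 9.1 RPKM) was followed by Snhg3 (58.2 ± 6.2 RPKM), Snhg1 (56.7 ± 5.1 RPKM) and Snhg6 (41.3 ± 5.0 RPKM), with no Platr gene among the first 4. Median levels were 6.34 RPKM for Snhg and 0.958 RPKM for Platr in C48S RA cells, 6.18 and 1.07 RPKM in WT RA cells, 13.7 and 1.84 RPKM in C48S undifferentiated cells, and 18.0 and 3.19 RPKM in WT undifferentiated cells. A mean under 1 CPM was found for 13, 17, 10 and 8 of the 29 Platr genes in the same order of groups.

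The summed level of the 45 genes was 684 CPM in C48S RA, 910 CPM in WT RA, 1194 CPM in C48S undifferentiated and 1534 CPM in WT undifferentiated cells. The Platr sum was 112 to 118 CPM in C48S RA and 182 to 186 CPM in WT RA libraries, with 179 to 184 CPM in C48S undifferentiated and 347 to 363 CPM in WT undifferentiated libraries. The Platr sum was lower in C48S than in WT in each state without overlap, but it rests on a few members. After RA the difference of -70.4 CPM is exceeded by those of Platr14 (-37.5 CPM), Platr25 (-26.4 CPM) and Platr3 (-11.4 CPM) together, and the median Platr log2 difference was 0.19. Before RA Platr14 gave -90.0 of -173 CPM. The Snhg sum overlapped between the lines before RA, at 638 to 776 CPM in C48S undifferentiated and 729 to 779 CPM in WT undifferentiated libraries. After RA it was 335 to 368 CPM in C48S RA and 360 to 383 CPM in WT RA libraries. In bulk RNA, fewer cells of a kind and less of the RNA per cell cannot be told apart, and values relative to a library's total hold no information on RNA content per cell.

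**Figure D2:**
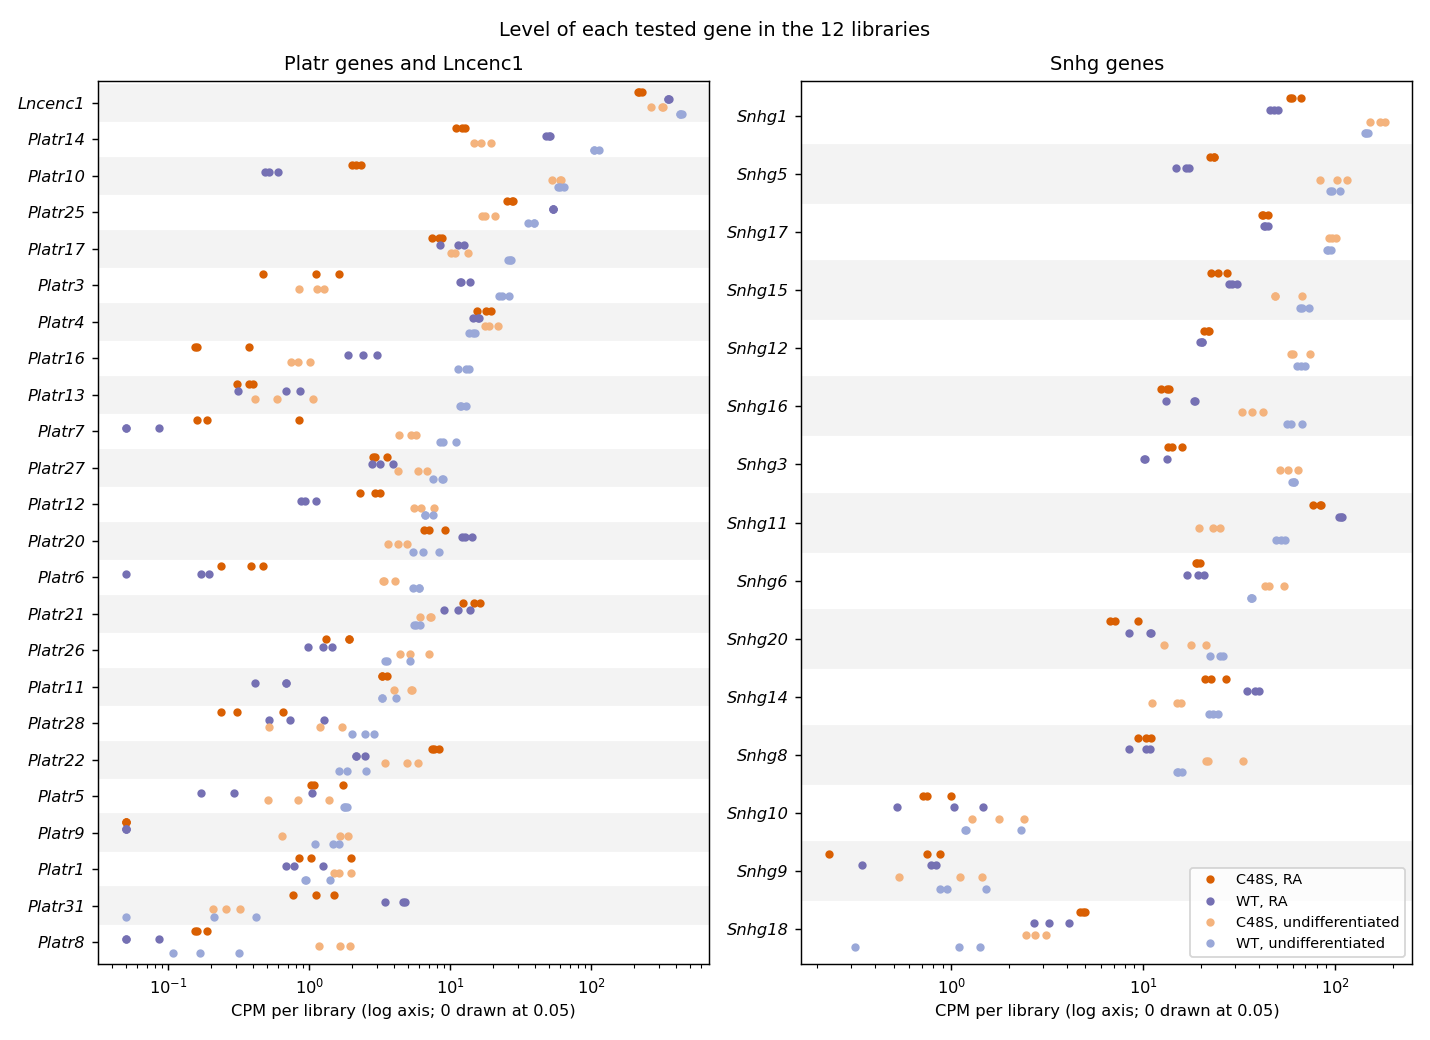
CPM of each tested gene in every library on a log axis, 1 point per library, with groups stacked in the order of the legend and a 0 drawn at 0.05. Lncenc1 holds the highest points of all, most Snhg genes are shifted as a block between RA and undifferentiated libraries, and Platr3, Platr14 and Platr16 are separated by line in both states.

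Lncenc1 (chr13:97571478-97633515, plus strand, 6 exon blocks) had 226, 217 and 215 CPM in the C48S RA libraries, 350, 355 and 348 CPM in the WT RA libraries, 316, 320 and 266 CPM in the C48S undifferentiated libraries, and 426, 426 and 435 CPM in the WT undifferentiated libraries. The lines did not overlap in either state, nor did the states in either line. With RA it fell by 0.45 ± 0.053 on the log2 scale in C48S (SE, adjusted p = 2.55e-09) and by 0.29 ± 0.052 in WT (adjusted p = 6.73e-06). Relative to WT it was lower in C48S by a log2 difference of -0.68 ± 0.053 after RA and -0.51 ± 0.053 before RA. The difference between these changes, C48S minus WT, was -0.16 ± 0.075 (adjusted p = 0.0823), which did not pass, although it did without C48S undifferentiated replicate 3 (-0.25). Its partners Ptbp1 and Hnrnpk both fell in both lines, with log2 changes of -0.53 and -0.55 in C48S and of -0.81 and -0.77 in WT. The nearest protein-coding gene, Enc1, which lies 181936 bases away on the same strand, fell in each line (log2 change -1.32 in C48S and -1.73 in WT) and was higher in C48S than in WT before RA (0.27) and after it (0.69).

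The RA comparisons set differentiating cells against undifferentiated cells of the same line. Most Snhg genes and most tested Platr genes fell in both lines, with a narrow range for Snhg and a wide one for Platr. In C48S, 11 of 15 Snhg genes fell and 3 rose, and 13 of 23 Platr genes fell and 5 rose, whereas 34.6% of all genes tested fell and 39.0% rose (73.6% called). In WT, 10 of 15 Snhg genes fell and 3 rose, and 15 of 23 Platr genes fell and 4 rose, against 37.4% and 40.9% of all genes tested (78.3% called). The median log2 change was -1.18 for Snhg and -0.52 for Platr in C48S and -1.09 and -1.56 in WT, beside 0.05 and 0.06 over all genes. These Platr medians are the same with Platr9, which had no count after RA, set at its bound. Among the 1282 tested genes with a long noncoding biotype, to which most members belong, 490 rose and 213 fell in C48S and 601 rose and 286 fell in WT. A call means a Benjamini-Hochberg adjusted p under 0.05 over all genes tested in edgeR's quasi-likelihood test.

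Snhg5 (chr9:88377321-88405615, minus strand) was the Snhg gene that fell furthest in each line. It had 22.3, 23.4 and 23.5 CPM in the C48S RA libraries against 83.4, 103 and 115 CPM in the C48S undifferentiated libraries, and 16.7, 14.8 and 17.4 CPM in the WT RA libraries against 106, 94.4 and 96.8 CPM in the WT undifferentiated libraries. The RA libraries were low throughout and did not overlap the others. The log2 change was -2.12 ± 0.093 in C48S (adjusted p = 3.89e-17) and -2.61 ± 0.10 in WT (adjusted p = 1.14e-18). Snhg3 had 14.1, 16.0 and 13.5 CPM in the C48S RA libraries against 56.9, 63.7 and 51.6 CPM in the C48S undifferentiated libraries, and 10.3, 13.4 and 10.1 CPM in the WT RA libraries against 61.1, 59.3 and 61.2 CPM in the WT undifferentiated libraries. It fell by 1.99 ± 0.096 on the log2 scale in C48S and by 2.42 ± 0.10 in WT, and Rcc1, which it overlaps and which encodes the nuclear exchange factor of Ran, fell by 0.96 and 1.14.

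Snhg1 (chr19:8700839-8703807, plus strand), whose model is a single block with 8 snoRNA genes inside, had 58.1, 66.8 and 59.4 CPM in the C48S RA libraries against 152, 172 and 181 CPM in the C48S undifferentiated libraries, and 47.9, 45.7 and 50.3 CPM in the WT RA libraries against 148, 144 and 144 CPM in the WT undifferentiated libraries. Its log2 change was -1.46 ± 0.063 in C48S and -1.60 ± 0.066 in WT. Because the models of Snhg1, Snhg8 and Snhg12 have no introns, reads from unspliced RNA are counted to them as well. The same limit holds in part for models whose exons cover much of the span. These include Snhg11 (8527 of 10514 bases), Snhg15 (2652 of 3189), Snhg17 (7052 of 7881) and Snhg20 (2795 of 2948). Snhg6, Snhg8, Snhg12, Snhg15, Snhg16, Snhg17 and Snhg20 also fell in both lines, with log2 changes between -1.14 (Snhg15) and -1.58 (Snhg12) in C48S and between -0.63 (Snhg8) and -1.87 (Snhg16) in WT. Snhg10, with the uncertain counts given above and at 1.81 CPM or less in every group mean, fell in C48S (-1.13 ± 0.39, adjusted p = 0.0109, and -0.90 without C48S undifferentiated replicate 3, which did not pass) and had a change of -0.60 in WT that did not pass. Snhg9, an antisense gene to the ribosomal protein gene Rps2 whose model has 183 bases, did not pass in either line (-0.76 and -0.82). It had 109 counts in all libraries against 220011 for Rps2, so reads on the wrong strand could matter for Snhg9.

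The Snhg genes that rose were Snhg11, Snhg14 and Snhg18. Snhg11 (chr2:158217558-158228071, plus strand), known in brain as a neuronal transcript, had 76.3, 83.7 and 84.5 CPM in the C48S RA libraries against 19.4, 25.2 and 23.0 CPM in the C48S undifferentiated libraries, and 109, 104 and 107 CPM in the WT RA libraries against 54.9, 49.0 and 52.4 CPM in the WT undifferentiated libraries. All RA libraries were higher, with a log2 change of 1.86 ± 0.078 in C48S (adjusted p = 3.60e-21) and 1.04 ± 0.070 in WT (adjusted p = 1.25e-15). Snhg17, which lies on the other strand between positions 158195620 and 158203500 of the same chromosome, fell in both lines. Snhg14, the imprinted host transcript that continues antisense into Ube3a and shares its own strand with another gene model, rose by 0.76 ± 0.12 in C48S and 0.69 ± 0.10 in WT, and Ube3a fell by 0.12 and 0.28. Snhg18 had 4.84, 4.68 and 4.99 CPM in the C48S RA libraries against 2.71, 2.45 and 3.10 CPM in the C48S undifferentiated libraries, and 2.69, 4.12 and 3.22 CPM in the WT RA libraries against 0.315, 1.09 and 1.41 CPM in the WT undifferentiated libraries. Its RA libraries were the higher ones in each line, with log2 changes of 0.81 ± 0.24 and 1.82 ± 0.32.

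**Figure D3:**
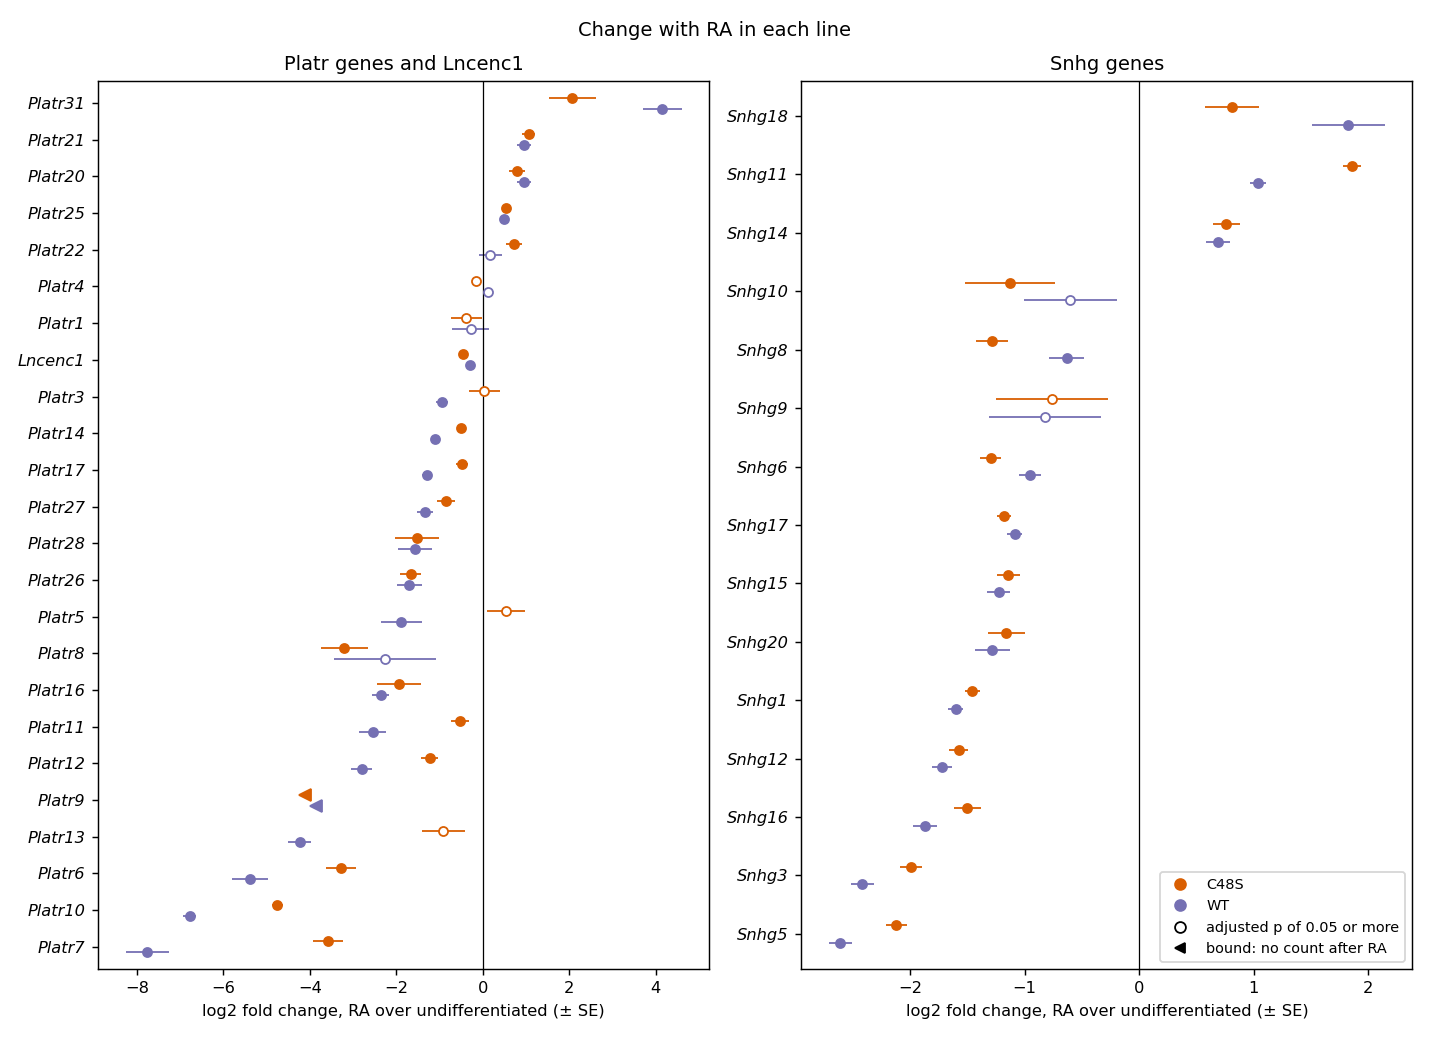
Log2 fold change of RA over undifferentiated cells for each tested gene, C48S above WT within each row, with bars for the SE, open points where the adjusted p was 0.05 or more and triangles for Platr9 at its bound. The Snhg genes that fell lie between -2.61 and -0.63 and the Platr points spread from the fitted change of Platr7 at -7.76 to Platr31 at 4.15, both in WT.

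The Platr genes that fell most were nearly or wholly lost after RA. Platr10 (chr3:75554753-75563038, minus strand) had 2.00, 2.34 and 2.14 CPM in the C48S RA libraries against 61.1, 52.9 and 60.2 CPM in the C48S undifferentiated libraries, and 0.518, 0.600 and 0.488 CPM in the WT RA libraries against 57.5, 64.2 and 59.9 CPM in the WT undifferentiated libraries. The lines overlapped before RA, and every RA library was low, with a log2 change of -4.75 ± 0.12 in C48S (adjusted p = 1.52e-27) and -6.78 ± 0.16 in WT (adjusted p = 6.30e-29). Platr7 (chr10:84383281-84389202, minus strand) had 0.845, 0.187 and 0.159 CPM in the C48S RA libraries against 4.33, 5.22 and 5.69 CPM in the C48S undifferentiated libraries. In WT it had 1 count in the 3 RA libraries together against 286 counts in the undifferentiated ones, a 294-fold ratio with a 95% counting interval of 52.4 to 11660, which covers counting error alone. Platr9, which overlaps Cga on the other strand, had no count in any RA library against 44 counts in the C48S undifferentiated and 42 in the WT undifferentiated libraries, so it was at least 17.3-fold lower after RA in C48S and at least 14.4-fold lower in WT, where the floor was 3 counts in the 3 libraries together.

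Platr6 fell by 3.28 ± 0.35 on the log2 scale in C48S and by 5.39 ± 0.41 in WT. These changes rest on few counts after RA. Platr6 had 13 counts in the C48S RA libraries together against 110 in the C48S undifferentiated ones. In WT it had 4 counts after RA against 177 before. Sgk1, a serum- and glucocorticoid-regulated kinase gene 37333 bases away on the other strand and the nearest protein-coding gene, changed by -2.90 ± 0.053 and -5.53 ± 0.067. Platr12, Platr14, Platr16, Platr17, Platr26, Platr27 and Platr28 also fell in both lines, Platr8 fell in C48S, and Platr3, Platr5 and Platr13 fell in WT. Platr11 fell in both lines, with a log2 change of -0.52 ± 0.21 in C48S (adjusted p = 0.0243) and -2.55 ± 0.32 in WT, and its C48S call was lost without C48S undifferentiated replicate 2 (-0.49) or 3 (-0.44) and without C48S RA replicate 2 (-0.50) or 3 (-0.49). The C48S call of Platr28 was lost without C48S undifferentiated replicate 2 (-1.18). Platr8 in WT, with 1 count after RA, had a fitted change of -2.26 that did not pass (a 6.17-fold lower level, 95% counting interval 0.749 to 284) but passed without WT RA replicate 2 (-4.14).

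Platr20, Platr21, Platr25 and Platr31 rose in both lines and Platr22 rose in C48S alone by the test (0.72 ± 0.18, against 0.18 ± 0.27 in WT, and the difference did not pass). Platr31 (chr6:127077260-127087430, plus strand) had 0.768, 1.12 and 1.51 CPM in the C48S RA libraries against 0.255, 0.320 and 0.207 CPM in the C48S undifferentiated libraries, and 4.77, 3.43 and 4.59 CPM in the WT RA libraries against 0.210, 0.420 and 0 CPM in the WT undifferentiated libraries. The RA libraries lay above the others in each line, with log2 changes of 2.07 ± 0.54 and 4.15 ± 0.45. Platr31 is antisense to Tigar, a regulator of glycolysis that lies on the opposite strand, and Tigar changed the other way, by -2.29 ± 0.056 in C48S and -2.82 ± 0.066 in WT. Platr21 rose by 1.06 ± 0.15 and 0.96 ± 0.16, Platr20 by 0.80 ± 0.18 and 0.96 ± 0.16, and Platr25 by 0.55 ± 0.091 and 0.49 ± 0.079 in C48S and WT. Platr4, which in mouse stem cells has been linked to mesoderm and endoderm commitment, stood at 17.6 ± 2.1 CPM in C48S RA, 15.4 ± 0.79 CPM in WT RA, 19.4 ± 2.1 CPM in C48S undifferentiated and 14.3 ± 0.69 CPM in WT undifferentiated cells. Its RA changes of -0.14 and 0.11 did not pass, nor did those of Platr1 (-0.38 and -0.27).

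Listed genes of the snoRNA pathway mostly fell with RA in both lines. Over all genes tested 34.6% fell and 39.0% rose in C48S, and 37.4% fell and 40.9% rose in WT. Of the other noncoding snoRNA hosts, 4 of 4 fell in each line, with a median log2 change of -1.90 in C48S and -1.64 in WT. Gas5, a growth-arrest transcript with many intronic snoRNAs, changed by -1.28 ± 0.058 and -1.41 ± 0.060. Of the proteins that assemble or bind snoRNAs, 18 of 18 fell in C48S (median -0.94) and 17 of 18 in WT (median -1.10), the exception in WT being Nop10 (-0.13). Fbl, the methyltransferase fibrillarin, fell by 1.14 ± 0.055 in C48S and by 1.11 ± 0.055 in WT, and Nolc1, a nucleolar chaperone of snoRNA particles, fell by 1.50 ± 0.048 and 1.64 ± 0.049. Of the protein-coding snoRNA hosts, mostly ribosomal protein and translation genes, 14 of 15 fell and 1 rose in each line (medians -0.73 and -0.67), and Tpt1 was the gene that rose (0.14 and 0.26). Of the nonsense-mediated decay factors, 12 of 14 fell and 0 rose in C48S (median -0.73), and 13 of 14 fell and 0 rose in WT (median -0.95). All 10 pluripotency factors fell in each line, with medians of -2.97 in C48S and -4.29 in WT, and of 11 other long noncoding RNAs 3 rose and 4 fell in C48S and 5 rose and 2 fell in WT.

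**Figure D4:**
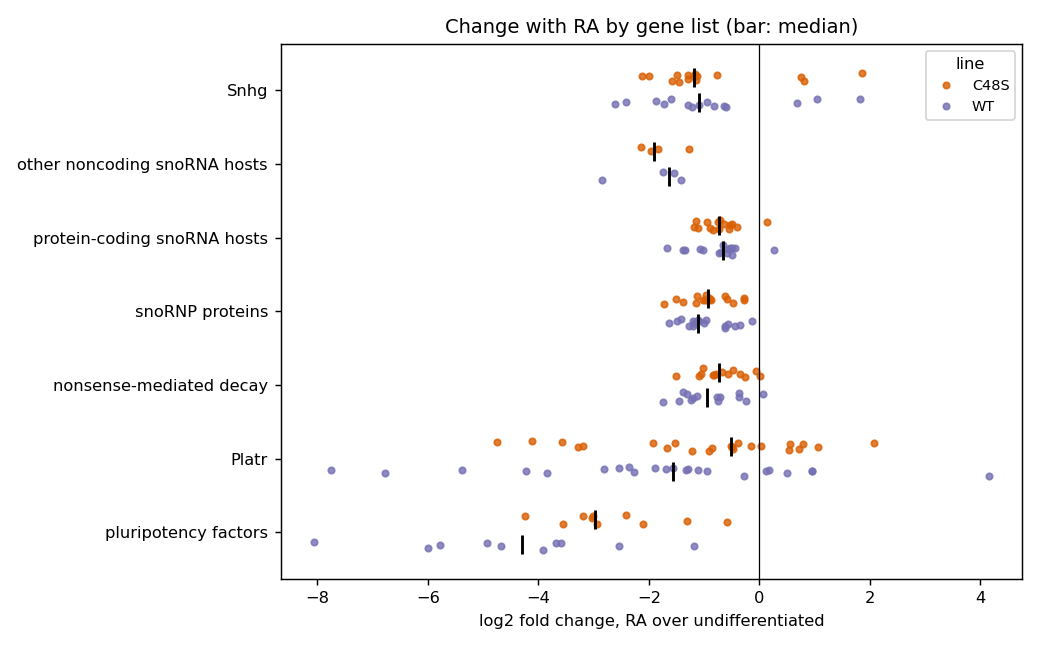
Log2 fold change of RA over undifferentiated cells for members of each list, 1 point per tested gene, C48S above WT, with a black bar at the median. The Snhg points lie in the range of the snoRNA particle genes and other hosts except the 3 that rose, while the Platr points reach from the range of the pluripotency factors to above 0.

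Of the 36 nested genes typed as snoRNA, 21 lay inside an exon model of the host and had 0 counts in every library. A read pair there overlaps the host model at least as far as the snoRNA, and pairs were assigned by largest overlap. These 0 counts therefore do not show whether the snoRNAs were present. Of the other 15, 7 also had no count, and 4 were tested. Counts of these 4 were not separated from reads of unspliced host RNA. Snord87, in Snhg6, fell by 1.81 ± 0.47 on the log2 scale in C48S and by 2.17 ± 0.45 in WT, where Snhg6 itself changed by -1.30 and -0.96. Snord87 had 141 counts over all libraries, with means of 0.407 CPM in C48S RA and 0.474 CPM in WT RA cells. Snora78, in Snhg9, fell by 1.00 ± 0.18 and 0.96 ± 0.17. Of the pair in Snhg3, Snora73b fell by 0.41 ± 0.12 in C48S and 0.76 ± 0.13 in WT, and Snora73a had -0.22 ± 0.15 in C48S, which did not pass, and fell by 0.52 ± 0.15 in WT. The change of Snhg3 was -1.99 and -2.42, and the difference between host and snoRNA was not tested.

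The comparison of the lines in each state asks what the Oct4 mutant clone changes. Before RA the Platr genes were mostly lower in C48S and the Snhg genes went both ways. Of the 23 Platr genes 12 were lower and 3 higher, and of the 15 Snhg genes 5 were lower and 4 higher, against 28.1% lower and 27.5% higher over all genes tested (55.6% called), so the Snhg shares lay near the background. After RA 7 Platr genes were higher and 7 lower and 3 Snhg genes higher and 3 lower, against 28.8% and 25.7% of all genes (54.5% called). The balance over all genes after RA depends on the scaling, with 4629 higher and 5072 lower in C48S under RLE scaling. The Platr genes higher in C48S after RA were Platr5, Platr7, Platr10, Platr11, Platr12, Platr21 and Platr22, and the lower ones were Platr3, Platr14, Platr16, Platr17, Platr20, Platr25 and Platr31. Without C48S undifferentiated replicate 3 the Platr counts before RA were 10 lower and 3 higher, and the Snhg counts after RA 4 higher and 5 lower. Among the 1282 genes of long noncoding biotype 218 were higher and 236 lower before RA. These comparisons share their libraries with the RA comparisons, so their values stand side by side.

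Platr3 (chr2:135490827-135493983, plus strand) had the largest deficit among the tested members before RA. It had 1.61, 0.468 and 1.11 CPM in the C48S RA libraries against 11.9, 11.8 and 13.7 CPM in the WT RA libraries, and 0.849, 1.28 and 1.14 CPM in the C48S undifferentiated libraries against 22.2, 23.3 and 26.1 CPM in the WT undifferentiated libraries. Every C48S library was low, whatever the treatment, and every WT library high. The log2 difference was -3.49 ± 0.21 after RA (adjusted p = 5.02e-16) and -4.46 ± 0.20 before RA (adjusted p = 1.14e-19). Plcb4, a phospholipase C gene 6948 bases away on the same strand, differed the other way (0.60 after RA and 0.81 before).

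Platr14 (chr2:104389508-104401774, plus strand), which in mouse stem cells has been tied to differentiation genes, had 12.1, 11 and 12.7 CPM in the C48S RA libraries against 50.8, 49.7 and 47.9 CPM in the WT RA libraries, and 16.6, 14.8 and 19.3 CPM in the C48S undifferentiated libraries against 113, 104 and 104 CPM in the WT undifferentiated libraries. The lines did not overlap in either state, with differences of -2.04 ± 0.090 (adjusted p = 5.23e-20) and -2.66 ± 0.084 (adjusted p = 2.40e-24). Its neighbour Cstf3 differed by -0.23 and -0.65 in the same direction. Platr16 stood at 0.229 ± 0.13 CPM in C48S RA against 2.43 ± 0.58 CPM in WT RA cells, and at 0.864 ± 0.14 CPM in C48S undifferentiated against 12.6 ± 1.2 CPM in WT undifferentiated cells, with differences of -3.40 ± 0.41 and -3.82 ± 0.24.

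Platr13 (chr11:41109664-41111923, plus strand) had 0.307, 0.374 and 0.396 CPM in the C48S RA libraries against 0.311, 0.858 and 0.684 CPM in the WT RA libraries, and 0.594, 1.06 and 0.414 CPM in the C48S undifferentiated libraries against 12.8, 11.7 and 11.8 CPM in the WT undifferentiated libraries. It was high in WT undifferentiated cells alone, with a line difference of -4.12 ± 0.26 before RA (adjusted p = 9.82e-16) and of -0.80 ± 0.50 after RA that did not pass. Platr13, Platr20, Snhg15, Snhg16 and Snhg20 lie on chromosome 11, where the median log2 difference of 1167 protein-coding genes was -0.53 before RA and -0.48 after. Measured against that median before RA, Platr13 lay at -3.60 and the other 4 between -0.18 (Snhg16) and 0.20 (Snhg15). The lower calls of Platr20, Snhg15, Snhg16 and Snhg20 before RA thus lay within 0.20 of the median of their chromosome. Platr31 lies on chromosome 6, where the median was 0.63 after RA, and was lower in C48S RA than in WT RA (-1.90 ± 0.32).

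Platr5, Platr6, Platr7, Platr17, Platr25, Platr27 and Platr28 were the other Platr genes lower in C48S before RA, by -0.58 (Platr27) to -1.22 (Platr17). Some of these calls rested on single libraries. That of Platr20 was lost without WT undifferentiated replicate 3 (-0.46), that of Platr27 without C48S undifferentiated replicate 1 (-0.39), and that of Platr28 without C48S undifferentiated replicate 3 (-0.78) or WT undifferentiated replicate 2 (-0.97). Platr5, at 0.907 ± 0.44 CPM in C48S and 1.80 ± 0.042 CPM in WT undifferentiated cells, lost its call without any of 6 libraries, with values of -1.03 to -0.69: C48S undifferentiated replicate 1 or 3, C48S RA replicate 1, or WT undifferentiated replicate 1, 2 or 3. Platr11, with a difference of 0.43, passed without C48S undifferentiated replicate 1 (0.57), and Platr26, at 0.45, passed without C48S undifferentiated replicate 2 (0.59) or WT undifferentiated replicate 3 (0.65).

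Higher in C48S before RA were Platr4, Platr8 and Platr22. Platr22 (chr1:136623949-136653880, plus strand) had 7.45, 8.32 and 7.61 CPM in the C48S RA libraries against 2.49, 2.14 and 2.15 CPM in the WT RA libraries, and 4.92, 5.86 and 3.41 CPM in the C48S undifferentiated libraries against 2.52, 1.85 and 1.63 CPM in the WT undifferentiated libraries. It was higher in C48S in both states without overlap (1.78 ± 0.21 after RA and 1.24 ± 0.24 before). Platr8 had 1.95, 1.17 and 1.66 CPM in the C48S undifferentiated libraries against 0.315, 0.168 and 0.108 CPM in the WT undifferentiated libraries (2.97 ± 0.55, adjusted p = 1.96e-05).

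Among the Snhg genes, Snhg11, Snhg14 and Snhg16 were lower in C48S in both states. Snhg11, with the library values given above, differed by -0.39 ± 0.066 after RA and -1.21 ± 0.082 before, and Snhg14 by -0.68 ± 0.10 and -0.75 ± 0.12. Snhg16 differed by -0.34 ± 0.13 after RA, a call that single libraries could remove, and by -0.71 ± 0.098 before. Snhg1 was higher in C48S in both states by small amounts (0.35 ± 0.069 and 0.21 ± 0.060). Before RA Snhg18 was higher in C48S by 1.53 ± 0.33, Snhg8 by 0.71 ± 0.13 and Snhg6 by 0.37 ± 0.086. After RA Snhg5 was higher by 0.50 ± 0.11 and Snhg3 by 0.35 ± 0.12, whereas before RA they differed by 0.02 and -0.08 without passing. Over all genes tested 28.8% were higher and 25.7% lower in C48S after RA, and 27.5% higher and 28.1% lower before. Of the listed snoRNA proteins 8 of 18 were higher and 3 lower in C48S after RA, and 5 higher and 4 lower before. Of the other noncoding hosts 1 of 4 was higher and 0 lower after RA, and 2 higher and 1 lower before. Of the protein-coding hosts 13 of 15 were lower and 0 higher after RA (median -0.28), and 12 lower and 0 higher before (median -0.26).

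Several calls after RA turned on single libraries. Calls were lost for Snhg3 without C48S RA replicate 2 (0.28) or WT RA replicate 1 (0.29) or 3 (0.25), for Snhg16 without C48S RA replicate 3 (-0.31) or WT RA replicate 1 (-0.27) or 3 (-0.29), and for Platr17 without C48S RA replicate 3 (-0.35) or WT RA replicate 2 (-0.29). They were lost for Platr21 without C48S RA replicate 2 (0.26) or 3 (0.33) or WT RA replicate 2 (0.20) or 3 (0.33), and for Platr5 without C48S RA replicate 3 (1.12) or WT RA replicate 2 (0.96) or 3 (1.14). In Platr5, Platr17, Platr21 and Snhg16 the C48S RA and WT RA libraries overlapped. Calls were gained for Platr28 without C48S RA replicate 2 (-1.56), and for Snhg18 without C48S undifferentiated replicate 3 (0.52), WT undifferentiated replicate 1 (0.50) or WT RA replicate 2 (0.70). Snhg15 passed without any of 6 libraries (-0.32 to -0.25), namely WT undifferentiated replicates 1 and 2, C48S undifferentiated replicates 1, 2 and 3 and C48S RA replicate 2. Snhg20 passed without C48S undifferentiated replicate 1 or 3, C48S RA replicate 2 or WT RA replicate 2 (-0.54 to -0.39).

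**Figure D5:**
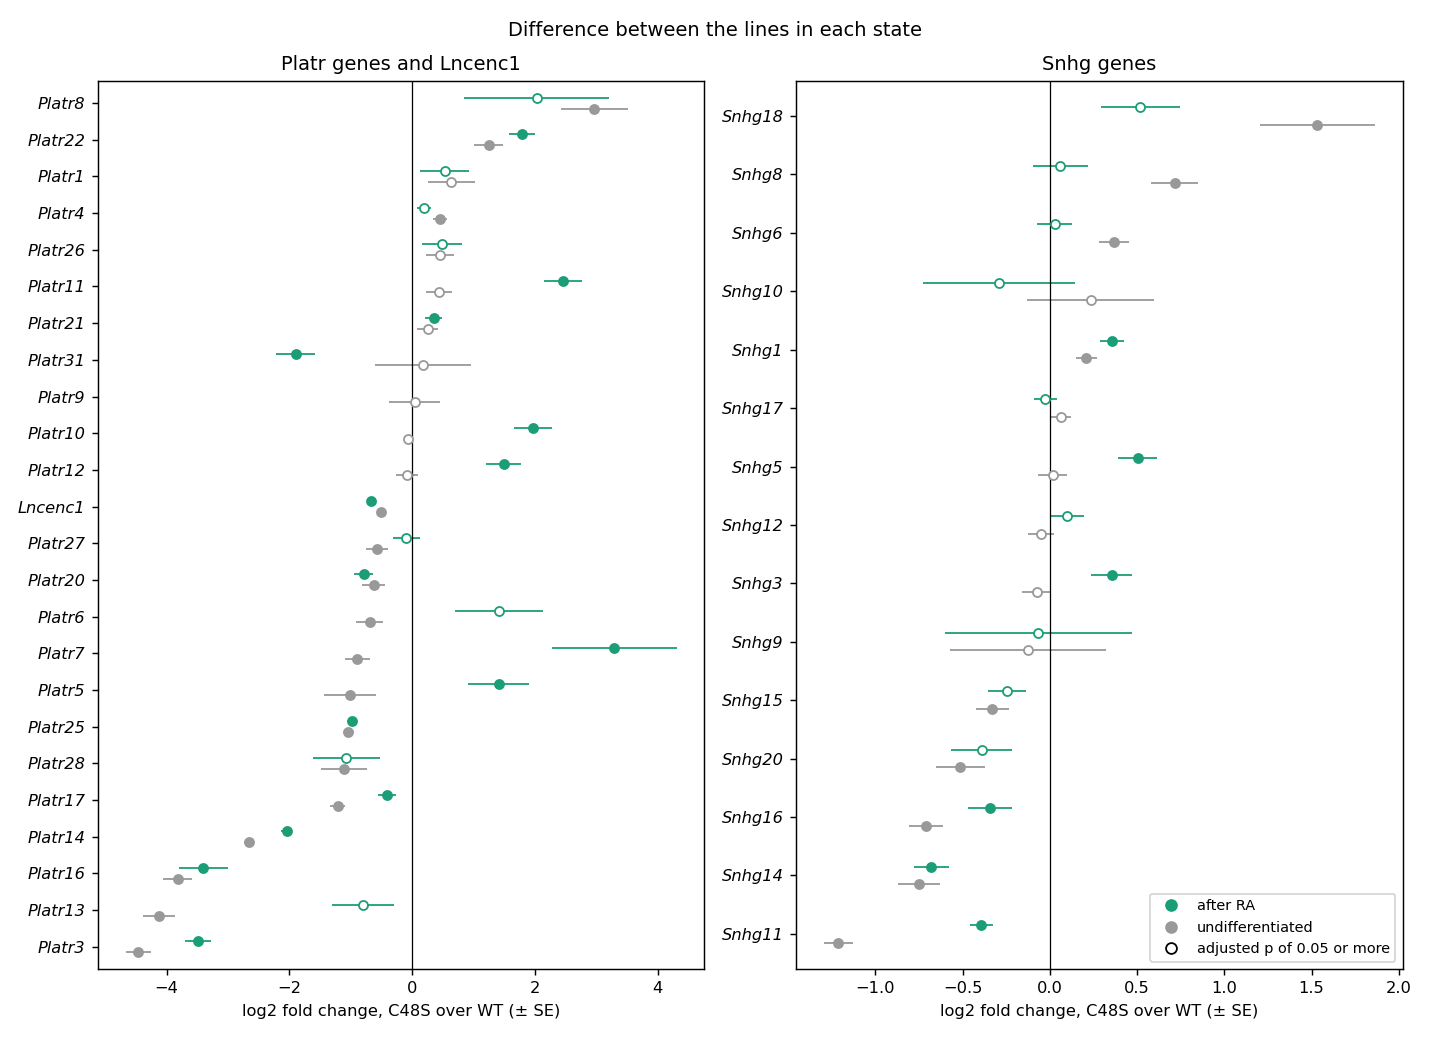
Log2 fold change of C48S over WT for each tested gene, after RA above undifferentiated within each row, with bars for the SE and open points where the adjusted p was 0.05 or more. Platr3, Platr14 and Platr16 lie at or below -2.04 in both states, and the Snhg points stay between -1.21 and 1.53. By the test Platr10, Platr11, Platr12, Platr21, Snhg3 and Snhg5 are higher in C48S after RA alone, and Platr31 is lower after RA alone.

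Platr10, Platr11 and Platr12 were called higher in C48S than in WT after RA and were not called before. The same held for Platr21, Snhg3 and Snhg5, while Platr31 was called lower in C48S after RA and was not called before. Platr11 (chr9:118233165-118235167, minus strand) had 3.54, 3.27 and 3.25 CPM in the C48S RA libraries against 0.414, 0.686 and 0.684 CPM in the WT RA libraries, and 3.99, 5.22 and 5.38 CPM in the C48S undifferentiated libraries against 3.25, 4.12 and 3.25 CPM in the WT undifferentiated libraries. The WT RA libraries were low and the other 9 overlapped or lay close together. The difference after RA was 2.46 ± 0.31 (adjusted p = 2.67e-08), and the nearest protein-coding gene, Eomes, a T-box factor of mesendoderm and trophoblast 72113 bases away on the other strand, stood at 21.7 CPM in C48S RA, 5.96 CPM in WT RA, 5.59 CPM in C48S undifferentiated and 3.94 CPM in WT undifferentiated cells. Platr12 had 3.15, 2.90 and 2.30 CPM in the C48S RA libraries against 0.933, 1.11 and 0.879 CPM in the WT RA libraries (1.49 ± 0.29), and Platr10, with the values above, differed by 1.97 ± 0.31.

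Whether the lines responded unequally to RA was tested by the interaction (log2 change of C48S minus log2 change of WT). It was positive for 10 of 23 Platr genes and negative for 0, against 22.2% and 17.2% of all genes tested (39.4% called). Of these 10, the RA change was smaller in size in C48S for all 10. Platr3 and Platr13 had only 1.09 and 0.69 CPM in C48S undifferentiated cells, against 23.9 and 12.1 CPM in WT undifferentiated cells. The part of these low levels in their interaction was not tested. Of the 15 Snhg genes 3 were positive and 3 negative, with 3 called in all without C48S RA replicate 2 and 3 without WT RA replicate 3. The median was 0.49 for Platr and 0.08 for Snhg, beside 0.02 over all genes. Platr10 (2.03 ± 0.32, adjusted p = 2.49e-06), Platr11 (2.03 ± 0.39) and Platr12 (1.58 ± 0.34) started at levels that were not called different between the lines and ended higher in C48S. Platr3, Platr13, Platr14 and Platr17 instead started lower in C48S and, after RA, were lower (Platr3, Platr14 and Platr17) or not called different (Platr13). Platr6 also started lower (-0.69) and was not called after RA (1.42). Platr5 and Platr7 were called lower in C48S before RA (-1.02 and -0.89) and higher after it (1.41 and 3.29). Except for that of Platr7 before RA, these Platr5 and Platr7 calls were each lost without some single library. Of the pluripotency factors 9 of 10 had a positive interaction and 0 a negative one (median 1.44), and 9 of 10 were higher in C48S than in WT after RA. Before RA, 3 of them were higher and 5 lower. Over all genes tested, 28.8% were higher in C48S after RA, and 27.5% were higher and 28.1% lower before.

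Among the Snhg genes the interaction was positive for Snhg11 (0.82 ± 0.11, adjusted p = 7.35e-08), Snhg5 (0.49 ± 0.14) and Snhg3 (0.43 ± 0.14), and negative for Snhg18 (-1.01 ± 0.41), Snhg8 (-0.66 ± 0.21) and Snhg6 (-0.34 ± 0.13). Several of these rest on single libraries. Snhg18 lost its call without any of 9 libraries (-1.18 to -0.65), all but WT undifferentiated replicate 3, C48S undifferentiated replicate 2 and WT RA replicate 1. Snhg6 lost it without any of 6, namely C48S undifferentiated replicate 2, C48S RA replicates 2 and 3, WT undifferentiated replicate 2 and WT RA replicates 1 and 3 (-0.36 to -0.26). Snhg3 lost it without C48S RA replicate 2 or WT RA replicate 1 or 3 (0.34 to 0.36), and Snhg8 without WT RA replicate 2 (-0.59). Snhg16 passed without C48S undifferentiated replicate 3 (0.46) or WT RA replicate 1 (0.44), and Snhg1 without C48S undifferentiated replicate 3 (0.20).

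Of the Platr calls, that of Platr3 was lost without any of 7 libraries (0.54 to 0.97): C48S undifferentiated replicate 1, C48S RA replicates 1 and 3, WT undifferentiated replicates 2 and 3 and WT RA replicates 1 and 2. That of Platr6 was lost without C48S RA replicate 1 (2.05) or 2 (1.91) or WT RA replicate 1 (1.61). That of Platr7, which rests on 1 count in the WT RA libraries, was lost without C48S RA replicate 1 (2.96), and so was its difference between the lines after RA (2.08 without that library, and a 13-fold ratio with a 95% counting interval of 2.00 to 549 with it). Platr31, at -2.08 ± 0.88 without passing, passed without C48S RA replicate 3 (-2.36) or WT undifferentiated replicate 2 (-3.12).

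Each tested member was set beside its nearest protein-coding gene, where that gene was tested too, which gave 36 pairs. With RA, both genes of a pair were called in the same direction in 17 pairs and in opposite directions in 7 in C48S, and in 17 and 8 in WT. For C48S against WT the numbers were 10 and 6 after RA, and 12 and 5 before. For the interaction they were 5 and 7. Pairs are not independent of the many genes that moved with RA, and 0 pairs in either line had neither gene called. Over all genes tested, 73.6% were called with RA in C48S and 78.3% in WT. Between the lines 54.5% were called after RA and 55.6% before, and 39.4% in the interaction. No share was computed for pairs of members with other genes, so these numbers do not show a relation between neighbours.

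Markers of other cell types moved with the groups as well. The 8 fibroblast markers summed to 352 to 357 CPM in C48S RA, 227 to 231 CPM in WT RA, 451 to 609 CPM in C48S undifferentiated and 333 to 364 CPM in WT undifferentiated libraries. The 4 endoderm markers summed to 41.2 to 45.0 CPM in C48S RA and 30.8 to 32.1 CPM in WT RA, against 5.69 to 9.76 CPM in C48S undifferentiated and 3.67 to 4.99 CPM in WT undifferentiated libraries. These endoderm markers rose with RA in both lines, 4 of 4, whereas in the other lists a few genes carry the sums. Over all genes tested 39.0% rose in C48S and 40.9% in WT. In the fibroblast list Pdgfrb stood at 223 CPM in C48S RA and 85.1 CPM in WT RA against 28.3 CPM in C48S undifferentiated and 12.2 CPM in WT undifferentiated cells. Col1a1 stood at 78.2 CPM in C48S RA and 74.9 CPM in WT RA against 270 CPM in C48S undifferentiated and 143 CPM in WT undifferentiated cells. Col1a1, Col3a1, Dcn and Lum fell in both lines, Pdgfrb and Thy1 rose in both, and Col1a2 and Postn rose in WT and fell in C48S. The 4 trophoblast markers summed to 226 to 245 CPM in C48S RA and 498 to 507 CPM in WT RA, against 18.6 to 20.5 CPM in C48S undifferentiated and 11.7 to 16.0 CPM in WT undifferentiated libraries. The keratin genes Krt8 and Krt18 make up most of these RA sums, and Cdx2 went the other way between the lines. Cdx2 stood at 38.2 CPM in C48S RA and 2.95 CPM in WT RA (log2 difference 3.68), against 0.523 CPM in C48S undifferentiated and 5.70 CPM in WT undifferentiated cells (-3.42), so that it rose with RA in C48S and fell in WT. The 4 neural markers summed to 23.3 to 29.5 CPM in C48S RA and 16.6 to 18.7 CPM in WT RA, against 56.6 to 76.1 CPM in C48S undifferentiated and 71.2 to 73.7 CPM in WT undifferentiated libraries. Tubb3 fell in both lines (-3.23 in C48S and -4.79 in WT) while Pax6 (5.44 and 3.86) and Sox1 (1.57 and 2.10) rose, so the sums run against Pax6 and Sox1. Neurod1 did not pass in either line (0.22 in C48S and 0.71 in WT). No marker was at 0 in a group, and their part in the differences of the Platr and Snhg genes was not tested.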

How the data were processed

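Each library has its own deposited table of raw gene counts. According to the file headers, featureCounts 1.6.3 counted read pairs with strand option 2, with each pair assigned to the feature of largest overlap, in Ensembl release 104 models of GRCm39. Per the submitters' processing notes STAR 2.7.9a, DESeq2 and mm39 were used. Libraries were rRNA-depleted, per the labels' protocols. Strand was used to assign reads to antisense partners. Reads recorded on the wrong strand were not measured, so counts may carry over between such partners.

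Coordinates came from the files. Symbols came from GENCODE M21, used for names alone, which named 52083 of the identifiers (94.0%), and the promoter windows from RefSeq on GRCm38.p6. All 12 libraries were tested together with edgeR 4.0.16 (limma 3.58.1, R 4.3.3): filterByExpr (minimum count 10), TMM, quasi-likelihood dispersions (robust), 1 coefficient per group, 8 residual degrees of freedom, and Benjamini-Hochberg adjusted p under 0.05 over 17940 genes. The contrasts were C48S minus WT in each state, in each line RA minus undifferentiated, plus their interaction. The procedure was also run on simulated counts that gave all genes the same dispersion, and no result here rests on that run. Where a group had no count, a fold is a bound against 3 counts over the group; with 1 to 3 counts it is a ratio with an exact 95% counting interval. Alternatives were RLE scaling, DESeq2 1.42.0, no filter, a filter of 1 CPM in 3 libraries, the compared groups alone, a replicate block and leaving out each library.

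All members may be named; other genes are named only from the listed snoRNA, decay, pluripotency, partner, noncoding and marker genes, from nested snoRNA genes and from nearest protein-coding genes. The members and lists were chosen with earlier results of these data known.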

Additional observations from a re-analysis of the deposited data

Results flagged for a closer look

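The RA change differed between the lines by the test of the interaction for 16 members, given here as the log2 change in C48S minus that in WT. Among Platr genes the values were 4.18 for Platr7, 3.32 for Platr13, 2.43 for Platr5, 2.11 for Platr6, 2.03 for Platr10, 2.03 for Platr11, 1.58 for Platr12, 0.98 for Platr3, 0.80 for Platr17 and 0.62 for Platr14. That of Platr7 was fitted with 1 count in the WT RA libraries together and that of Platr6 with 4. Platr3 and Platr13 had 33 and 21 counts in the C48S undifferentiated libraries together. Among Snhg genes they were 0.82 for Snhg11, 0.49 for Snhg5, 0.43 for Snhg3, -0.34 for Snhg6, -0.66 for Snhg8 and -1.01 for Snhg18. The interaction was called for 39.4% of all genes tested.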

How the results depend on the processing

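No called result turned its direction. Of the member results not called, 25 changed sign under some alternative, with adjusted p of 0.52 or more (edgeR) as reported. After RA the balance over all genes turned, with 4629 higher and 5072 lower in C48S under RLE scaling and 4257 and 4664 with DESeq2, against 5168 and 4617, and lower calls also outnumbered higher ones without any of 5 libraries (C48S undifferentiated replicate 2, WT undifferentiated replicates 1, 2 and 3, WT RA replicate 3). The counts of Platr, Snhg and all genes called stayed within 1.5 times their value under RLE scaling, DESeq2, both filters, the compared groups alone and the replicate block. The Lncenc1 interaction passed with RLE scaling (-0.19, against -0.16), and ranged from -0.25 to -0.13 with each library left out. The Snhg members called in the interaction ranged from 3 to 7 with each library left out, with 3 without C48S RA replicate 2 and 3 without WT RA replicate 3. The cause was not tested. Over the 39 members and 5 comparisons, leaving out a library kept 2254 results on their side of the threshold, gained 24 calls and lost 62, and the other settings kept 1091, gained 12 and lost 11. The interaction could not be fitted with the compared groups alone, since it uses all groups. Platr9 after RA had no count in either line, and low members such as Platr5, Platr7, Platr8, Platr9 and Snhg9 are limited by depth.

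Replicate numbers did not pair the libraries: same-numbered libraries of different groups had correlations of deviations between -0.11 and 0.14, against -0.11 to 0.15 for other pairs, and 5 of 12 libraries correlated best with their own number. With the replicate block 14 Platr genes were called between the undifferentiated lines (15 without it) and 4 Snhg genes in the interaction (6 without it), and the log2 change of Lncenc1 with RA was -0.45 in C48S and -0.29 in WT.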
